A study of Homo sapiens with 6 samples.

Results

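The genes described here are 39 parts of the nuclear pore and of the transport machinery that works through it, taken from a fixed list of nucleoporin, importin, exportin and RAN cycle genes. They were 39 of the 60612 genes listed for each library, and all 39 were among the 12076 genes tested, which averaged 1 FPKM or more over the libraries. FPKM divides the fragments of a gene by its length and by the size of the library, so levels can be compared between genes per length. By role, the list holds 30 nucleoporins, 6 transport receptors and 3 genes of the RAN cycle. The measurements were made in HCT116, an established human colorectal carcinoma cell line, by poly(A)-selected RNA sequencing. LV-NC, the control group, was infected with a control lentivirus (3 libraries), and LV-SNORA28 was infected with a lentivirus that overexpresses SNORA28, a small nucleolar RNA (3 libraries). Every library thus came from infected cells of 1 line, and none of the 6 was from uninfected cells. The comparison asked which nuclear pore and transport transcripts differ when SNORA28 is overexpressed.

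As background, the nuclear pore complex is a channel through the nuclear envelope built from many copies of nucleoporins. Scaffold rings, among them the Y complex and the inner ring, hold the channel open, membrane nucleoporins anchor it, and nucleoporins with phenylalanine-glycine repeats fill it. Importins and exportins carry cargo through this filling, and the small GTPase RAN sets the direction, because RCC1 loads it with GTP on chromatin and RANGAP1 triggers GTP hydrolysis in the cytoplasm. Dividing cells such as a carcinoma line assemble new pores as their nuclei grow, and several of these proteins, such as RAE1, KPNB1 and RAN, also serve the mitotic spindle.

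SNORA28 itself, which checks the labels, was listed at 0 to 0.92 FPKM in LV-NC and at 13.66 to 15.2 FPKM in LV-SNORA28. Because the libraries were poly(A)-selected, the low LV-NC values do not show that the small nucleolar RNA was absent there. By qRT-PCR, the study found SNORA28 higher in HCT116 than in normal epithelial lines. Mitochondrially encoded genes held 42.7% to 47.7% of all FPKM in LV-NC and 35.9% to 38.3% in LV-SNORA28, which matters because FPKM is a share of the whole library. Of 10 colorectal epithelial markers, 8 had a mean of at least 1 FPKM, while CDX1 was listed at 0 and VIL1 was near 0. Of the 6 fibroblast, 6 leukocyte and 4 endothelial markers, 2 reached that level (COL1A1 and CD68). In these bulk samples, fewer cells of a kind and less RNA per cell cannot be told apart. Whether the 3 libraries of a group came from separate cultures was not given in the sources used here, so p-values measure only the spread between these libraries, which may be technical.

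The 2 genes of the list that passed the test across all genes, NUP210 and RAE1, and RCC1, which had the largest difference in the list, are shown first by the RefSeq promoter windows at their starts (GRCh38.p14, 250 bases before to 50 bases after the start, written 5′ to 3′ along the gene). Capitals mark matches, on either strand, to the E2F letters TTCCCGC or TTGGCGC and to the NRF1 core GCGCATG. The NUP210 window is chr3:13420273-13420572, minus strand. The RAE1 window is chr20:57351292-57351591, plus strand, and the window of the upstream RCC1 start is chr1:28505793-28506092, plus strand.
NUP210: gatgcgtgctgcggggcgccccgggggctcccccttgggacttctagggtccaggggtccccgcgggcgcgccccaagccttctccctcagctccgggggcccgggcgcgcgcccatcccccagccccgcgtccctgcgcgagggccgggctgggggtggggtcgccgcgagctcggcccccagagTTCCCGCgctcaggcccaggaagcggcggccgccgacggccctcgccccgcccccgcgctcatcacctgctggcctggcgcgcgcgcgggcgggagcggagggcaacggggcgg
RAE1: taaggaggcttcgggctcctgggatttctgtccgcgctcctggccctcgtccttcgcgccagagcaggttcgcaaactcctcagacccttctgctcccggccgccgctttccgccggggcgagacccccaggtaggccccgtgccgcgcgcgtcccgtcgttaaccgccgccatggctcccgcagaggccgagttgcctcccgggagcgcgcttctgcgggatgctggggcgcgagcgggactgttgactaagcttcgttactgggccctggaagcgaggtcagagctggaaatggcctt
RCC1: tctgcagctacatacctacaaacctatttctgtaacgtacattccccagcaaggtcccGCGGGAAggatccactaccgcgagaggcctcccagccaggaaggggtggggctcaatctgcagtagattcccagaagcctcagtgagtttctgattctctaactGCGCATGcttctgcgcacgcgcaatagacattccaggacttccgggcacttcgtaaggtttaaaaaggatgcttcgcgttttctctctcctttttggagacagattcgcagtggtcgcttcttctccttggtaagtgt
The NUP210 window was 81.3% G and C and held 1 E2F match, which began 64 bases before the start (position -64). The RAE1 window was 68.0% G and C and held no match to any of the motifs searched. The RCC1 window shown was 51.7% G and C, with an E2F match on the opposite strand at position -192 and an NRF1 core match at position -88. A second RCC1 window, at chr1:28517976-28518275 and not shown, was 65.3% G and C. It held no E2F match and an NRF1 core match at position 14, after the start.

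Promoter windows were found for 36 of the 39 genes, 46 windows in all, because some genes have several starts. The E2F letters occurred in 11 of the 46 windows (23.9%), against 9.23% of all 35116 promoter windows of the same length. The NRF1 core occurred in 9 windows (19.6%), against 4.43% of all windows. TTTGAA, the letters of the cell-cycle homology region (CHR), occurred in 15 windows (32.6%), against 15.2%. CCAAT occurred in 18 windows (39.1%), against 34.6%. The median G and C content was 63.2% in the windows of the list and 58.7% in all windows. These counts were not tested, and a match of letters is a description of the sequence only.

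All 39 genes were transcribed in every library, over a wide range of levels. The lowest mean over the 6 libraries was 3.51 FPKM, for NUP214 of the cytoplasmic face, the median was 12.3 FPKM, and the highest was 109 FPKM, for the importin alpha KPNA2. Transport receptors had means of 19.3 to 109 FPKM and RAN cycle genes of 26.2 to 89.2 FPKM. The 8 Y complex genes had means of 5.43 to 13.4 FPKM, and the 5 inner ring genes 4.57 to 23.3 FPKM. NUP210, a membrane nucleoporin with its bulk in the lumen of the nuclear envelope, was the most abundant nucleoporin per length at 43.2 FPKM, ahead of the inner ring scaffold NUP188 at 23.3 FPKM. The other 3 membrane ring genes, NDC1, POM121 and POM121C, had means of 8.56 to 17.8 FPKM over the 6 libraries.

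**Figure D1:**
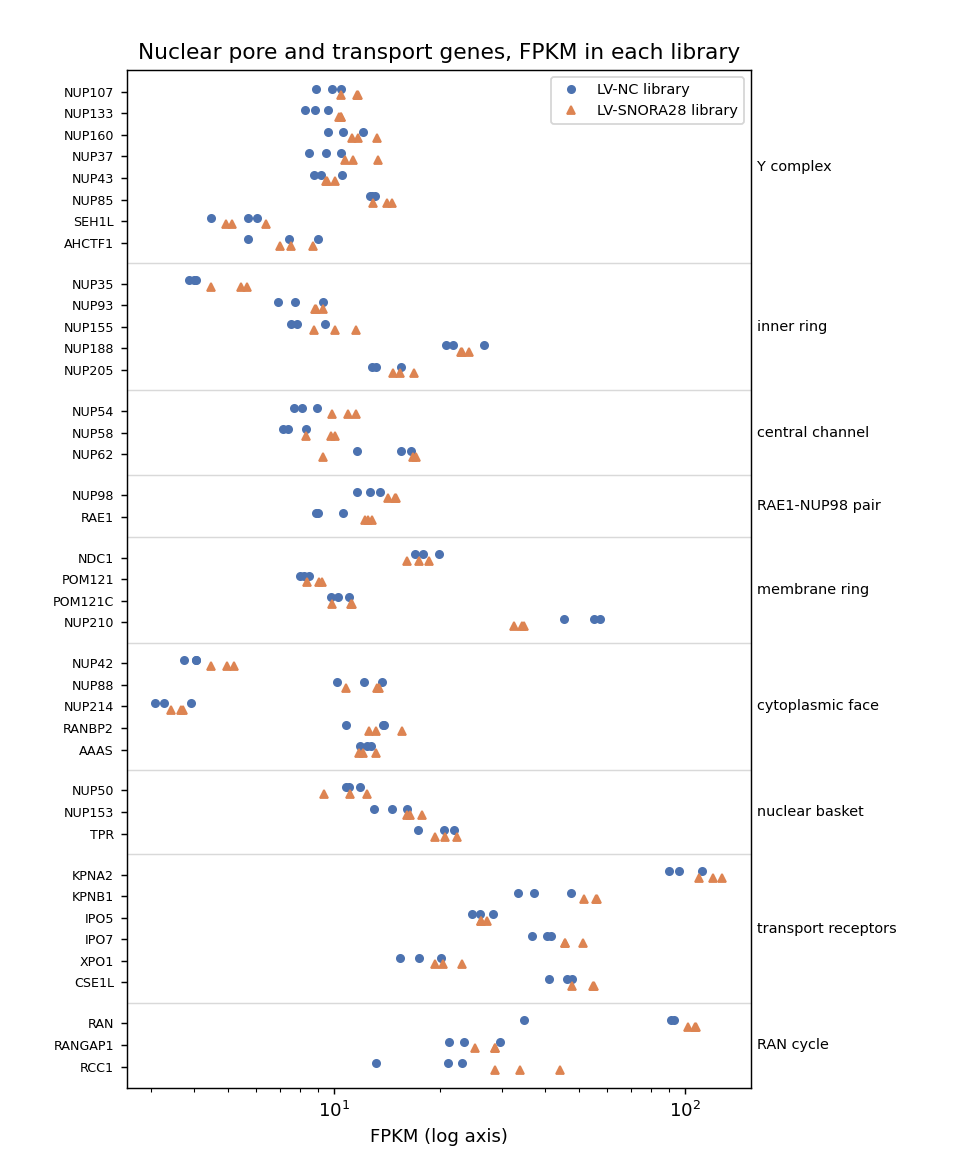
FPKM of the 39 genes in each library on a log axis, grouped by role (circles, the 3 LV-NC libraries; triangles, the 3 LV-SNORA28 libraries). The groups do not overlap for 14 of the 39 genes (35.9%, against 35.1% of all genes tested). NUP210 has all LV-SNORA28 libraries to the left of LV-NC, and RAN has 1 LV-NC library at 34.72 FPKM far from the other 2.

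The list as a whole lay slightly higher in LV-SNORA28, with few differences past the test. The median difference between LV-SNORA28 and LV-NC was 0.16 on the log2(FPKM + 1) scale, which is used for all differences and understates those of low genes, and it was 0.09 over all 12076 genes tested. The difference was above 0 for 35 of the 39 genes (89.7%) and for 66.7% of all genes, but for 25 of the 39 after quantile normalization, which moved the median of all genes to -0.00127. At an adjusted p below 0.05 in limma, 1 gene of the list was higher (RAE1) and 1 was lower (NUP210), together 5.13% of the list, against 8.91% of all genes tested (6.81% higher and 2.10% lower). The share of the list that was called was thus not above that of all genes. Before adjustment, 14 genes of the list had p below 0.05 (35.9%; 13 higher and 1 lower), against 28.0% of all genes. LV-NC and LV-SNORA28 did not overlap for 14 genes (35.9%; 13 higher and 1 lower), which is close to the 35.1% of all genes. The rule of the study was an unadjusted p below 0.05 and a fold change above 1.5. It was applied here to the limma p and the log2(FPKM + 1) difference, which may not be the measures of the study. By it, 2 genes passed (NUP210 and RCC1; 5.13%), against 3.79% of all genes.

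Most differences were small. Over the list, differences ran from -0.61 for NUP210 to 0.87 for RCC1. The log2(FPKM + 1) scale shrinks differences, most at low levels. A bound of log2(1.5) on it is therefore wider than a 1.5-fold change in FPKM. On that scale, the 95% interval of the difference lay wholly within log2(1.5) of 0 for 34 of the 39 genes (87.2%), against 75.0% of all genes tested. The 5 others were NUP62, NUP210, KPNB1, RAN and RCC1. Among the 30 nucleoporins alone, 28 had such an interval, the median difference was 0.10, and 26 lay above 0. The median coefficient of variation between libraries was 10.7% in LV-NC and 7.29% in LV-SNORA28 for the list, and 10.1% and 8.10% for all genes.

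**Figure D2:**
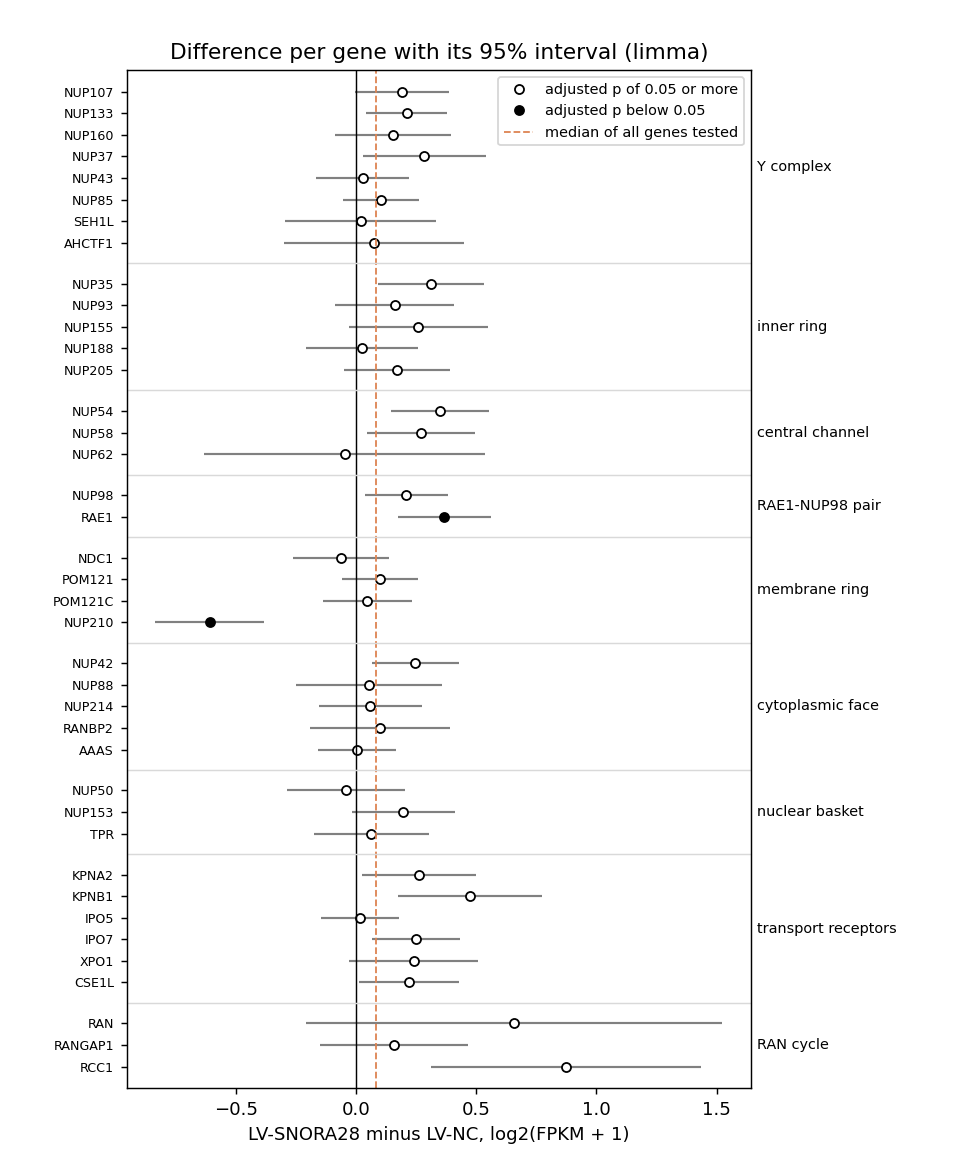
Difference in log2(FPKM + 1), LV-SNORA28 minus LV-NC, for each of the 39 genes with its 95% interval from limma, grouped by role. Filled points had an adjusted p below 0.05, which held for NUP210 at -0.61 and RAE1 at 0.37, and the dashed line is the median of all genes tested at 0.09.

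NUP210 fell, and it was the only gene of the list called lower. NUP210 (ENSG00000132182; GRCh38 chromosome 3, 13316235 to 13420322, minus strand) is a large membrane glycoprotein of the pore that varies between cell types. It had 54.96, 45.34 and 57.08 FPKM in LV-NC and 34.7, 32.64 and 34.4 FPKM in LV-SNORA28. Every LV-SNORA28 library lay below every LV-NC library, and the lowest LV-NC library was still more than 10 FPKM above the highest LV-SNORA28 library. The means were 52.5 ± 6.26 FPKM and 33.9 ± 1.11 FPKM (SD, n = 3 each), a ratio of 0.646. The difference was -0.61 (SE 0.09; 95% interval -0.84 to -0.38), at a limma adjusted p of 0.0170. By p it ranked 330th of the 12076 genes, and 101 of the 254 genes called lower had a larger fall. The size of the fall held in all fits that left out 1 library, at -0.71 to -0.55, but the adjusted p in limma was 0.0508 without LV-SNORA28 1, 0.0681 without LV-SNORA28 2 and 0.0633 without LV-SNORA28 3. Leaving out LV-NC 1, 2 or 3 gave adjusted p-values in limma of 0.0486, 0.0151 and 0.0497. Of the genes within 500 kb, 3 were tested (RPL32, IQSEC1 and HDAC11), and none was called, with differences of -0.20, 0.00 and 0.02.

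The other membrane ring genes were not called. NDC1, which anchors the scaffold in the membrane, had 16.98, 17.89 and 19.84 FPKM in LV-NC and 16.14, 17.48 and 18.68 FPKM in LV-SNORA28, a difference of -0.06 (95% interval -0.26 to 0.14). POM121 and POM121C, a pair of near-identical membrane nucleoporins, had differences of 0.10 (95% interval -0.06 to 0.26) and 0.05 (95% interval -0.14 to 0.23). Their aligned bases covered 88.5% of the POM121 transcript at 97.4% identity, so the split of reads between them is uncertain. SEC13 and TMEM33, other proteins with a place at the pore, had differences of -0.07 and 0.15 and were not called. NUP210L, the paralog of NUP210, had no value above 0.06 FPKM in any library.

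RAE1 rose, and it was the only gene of the list called higher. RAE1 (ENSG00000101146; chromosome 20, 57351223 to 57379211, plus strand) binds the nucleoporin NUP98 and takes part in mRNA export and in the mitotic spindle. It had 8.87, 9.01 and 10.61 FPKM in LV-NC and 12.52, 12.8 and 12.21 FPKM in LV-SNORA28, which do not overlap. The means were 9.50 ± 0.967 FPKM and 12.5 ± 0.295 FPKM (SD, n = 3 each), a ratio of 1.32. The difference was 0.37 (SE 0.08; 95% interval 0.17 to 0.56), at a limma adjusted p of 0.0410. It was among the smaller calls, since 644 of the 822 genes called higher had a larger difference. The call was lost in 5 of the 6 fits that left out 1 library, with adjusted p-values in limma of 0.0862 without LV-NC 1, 0.106 without LV-NC 2, 0.102 without LV-SNORA28 1, 0.132 without LV-SNORA28 2 and 0.114 without LV-SNORA28 3. Scaling to the sum over genes that are not mitochondrially encoded gave a difference of 0.34, at a limma adjusted p of 0.0514. NUP98, its partner, which sits on both faces of the pore, had 12.64, 11.6 and 13.52 FPKM in LV-NC and 14.21, 14.98 and 14.87 FPKM in LV-SNORA28. Its groups did not overlap either, but its difference of 0.21 (SE 0.07) had a limma adjusted p of 0.120.

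**Figure D3:**
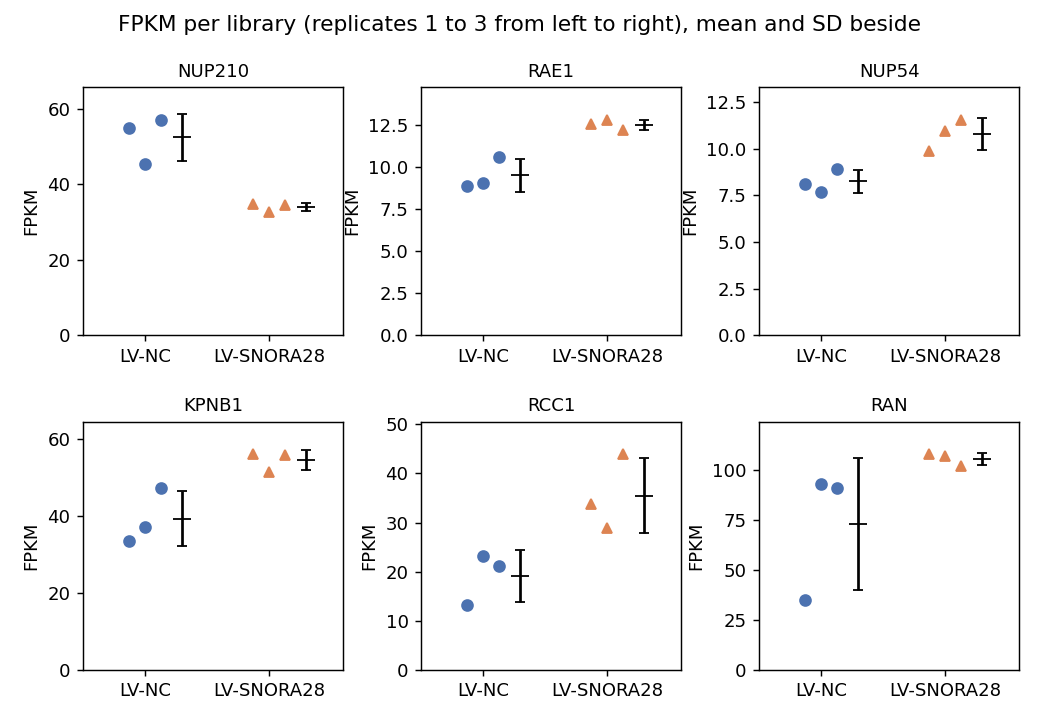
FPKM in each library for the genes NUP210, RAE1, NUP54, KPNB1, RCC1 and RAN, with the group mean and SD beside the points on axes that start at 0. NUP210 is lower in LV-SNORA28, RAE1, NUP54, KPNB1 and RCC1 are higher without overlap, and the spread of RAN in LV-NC comes from LV-NC 1 at 34.72 FPKM.

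No Y complex gene was called. The Y complex forms the outer rings of the scaffold, and AHCTF1 (ELYS) brings it to chromatin when pores are rebuilt after mitosis. All 8 genes that the list holds for it had differences above 0, from 0.02 for SEH1L to 0.28 for NUP37, with a median of 0.13. All 8 had intervals within log2(1.5) of 0 on the log2(FPKM + 1) scale. SEC13, which the wider list holds, was not among these 8 and had a difference of -0.07. NUP85, the most abundant of them, had 12.81, 12.62 and 13.07 FPKM in LV-NC and 14.6, 12.9 and 14.12 FPKM in LV-SNORA28. Its groups overlapped, and its difference of 0.10 (SE 0.07) had a limma adjusted p of 0.360. The groups did not overlap for 2 of the 8 (25.0%), NUP133 and NUP37, against 35.1% of all genes tested. These 2 scaffold genes had differences of 0.21 and 0.28 and adjusted p-values in limma of 0.111 and 0.142. AHCTF1 varied widely within LV-NC, from 5.7 to 9.02 FPKM, and its difference was 0.08. Part of its transcript is shared with a pseudogene, AHCTF1P1, at 99.0% identity over 76.6% of its length, and that pseudogene was listed at no more than 1.48 FPKM.

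The inner ring genes, which link the outer rings to the channel, had no call. Their 5 differences were all above 0, from 0.02 for NUP188 to 0.31 for NUP35, with a median of 0.17. NUP188 had 20.9, 21.86 and 26.73 FPKM in LV-NC and 23.06, 23.07 and 24.2 FPKM in LV-SNORA28. The LV-SNORA28 libraries lay inside the range of LV-NC, and the difference of 0.02 (SE 0.10) had a limma adjusted p of 0.899, with its sign reversed by quantile normalization (-0.06). NUP35, a small inner ring protein that touches the membrane, had 3.85, 4.03 and 4 FPKM in LV-NC and 4.46, 5.66 and 5.44 FPKM in LV-SNORA28. Its groups did not overlap, and its adjusted p in limma was 0.0847.

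In the central channel, NUP54 came close to the threshold and its partners were split. NUP54, NUP58 and NUP62 form the repeat-bearing trimer through which cargo passes. NUP54, singled out after its values were seen, had 8.12, 7.7 and 8.94 FPKM in LV-NC and 9.87, 10.94 and 11.57 FPKM in LV-SNORA28. No LV-SNORA28 value lay within LV-NC, and the difference was 0.35 (SE 0.08; 95% interval 0.15 to 0.55), at a limma adjusted p of 0.0530. It was called in 1 setting, at a limma adjusted p of 0.0396 when only genes that averaged 5 FPKM or more were tested. Its limma adjusted p was 0.101 under quantile normalization, 0.118 without a filter, 0.0742 after scaling to the non-mitochondrial sum and 0.0697 to 0.159 when a library was left out. NUP58 had a difference of 0.27, also without overlap, and a limma adjusted p of 0.122. NUP62 had 11.6, 16.61 and 15.56 FPKM in LV-NC and 17.15, 16.81 and 9.3 FPKM in LV-SNORA28. LV-SNORA28 3 was the lowest of all 6 libraries, and the difference of -0.05 (SE 0.24; 95% interval -0.63 to 0.54; adjusted p of 0.921 in limma) became 0.22 without it. NUP62 shares exonic bases with ATF5 on the opposite strand, as NUP188, NUP43, NUP88, NUP98 and POM121 do with other genes, and whether the counting used strand was not given in the sources used here.

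No gene of the cytoplasmic face or of the nuclear basket was called. On the cytoplasmic face, where mRNA is released and RANBP2 binds RANGAP1, the 5 differences ran from 0.00 to 0.25 with a median of 0.06. RANBP2 had 13.86, 10.84 and 13.75 FPKM in LV-NC and 13.15, 12.57 and 15.63 FPKM in LV-SNORA28, a difference of 0.10 (SE 0.12), at a limma adjusted p of 0.636. Its groups overlapped. NUP42, an mRNA export factor at this face, was higher in all LV-SNORA28 libraries (4.47, 4.95 and 5.18 FPKM) than in any LV-NC library (4.04, 3.74 and 4.03 FPKM), with a difference of 0.25 and a limma adjusted p of 0.0935. AAAS, also called ALADIN, had a difference of 0.00 with a 95% interval of -0.16 to 0.16. In the nuclear basket, which faces the chromatin, TPR had 21.94, 17.39 and 20.54 FPKM in LV-NC and 20.76, 19.39 and 22.36 FPKM in LV-SNORA28. These ranges overlapped, and the difference of 0.06 (SE 0.10) had a limma adjusted p of 0.723 and turned to -0.03 after quantile normalization. The other basket genes NUP153 and NUP50 had differences of 0.20 and -0.04.

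No transport receptor was called. All 6 differences were above 0, with a median of 0.25 beside the 0.10 of the nucleoporins, and 4 had an unadjusted p below 0.05 (KPNA2, KPNB1, IPO7 and CSE1L), against 28.0% of all genes tested. The difference between receptors and nucleoporins was not tested. KPNB1, singled out after its values were seen, is importin beta, the receptor that carries importin alpha and its cargo through the pore. It had 33.51, 37.16 and 47.2 FPKM in LV-NC and 55.99, 51.43 and 55.88 FPKM in LV-SNORA28. No LV-SNORA28 value lay within LV-NC, and the ratio of the means was 1.39. The difference was 0.47 (SE 0.13; 95% interval 0.17 to 0.77), at a limma adjusted p of 0.0651. Without LV-NC 3, the highest control library for this gene, the difference was 0.61, at a limma adjusted p of 0.0284. In the other 5 fits that left out 1 library, it was 0.37 to 0.51 with limma adjusted p-values of 0.116 to 0.176.

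KPNA2, an importin alpha that recognises the classical nuclear localisation signal, was the most abundant gene of the list. It had 90.1, 96.22 and 111.96 FPKM in LV-NC and 109.68, 127.78 and 119.85 FPKM in LV-SNORA28. The groups overlapped by 1 library, and the difference of 0.26 (SE 0.10) had a limma adjusted p of 0.146. CSE1L, which returns importin alpha to the cytoplasm, had 40.9, 45.98 and 47.64 FPKM in LV-NC and 47.57, 54.92 and 54.8 FPKM in LV-SNORA28, a difference of 0.22, at a limma adjusted p of 0.160. IPO7, an importer of ribosomal proteins, did not overlap between the groups, at 36.75 to 41.57 FPKM and 45.35 to 51.05 FPKM, with a difference of 0.25 and a limma adjusted p of 0.0910. XPO1, the exporter of proteins with a leucine-rich signal, had a difference of 0.24 (95% interval -0.03 to 0.51). IPO5 had a difference of 0.02 with a 95% interval of -0.15 to 0.18.

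The RAN cycle held the largest differences of the list and also the largest spread. RCC1 (ENSG00000180198; chromosome 1, 28505943 to 28539300, plus strand), the exchange factor that makes RAN-GTP, was singled out after its values were seen. It had 13.19, 23.17 and 21.11 FPKM in LV-NC and 33.78, 28.79 and 43.92 FPKM in LV-SNORA28. Every LV-SNORA28 library lay above every LV-NC library, and the ratio of the means was 1.85. The difference was 0.87 (SE 0.23; 95% interval 0.31 to 1.43), at a limma adjusted p of 0.0676. It was 0.64 without LV-NC 1, 0.71 without LV-SNORA28 3 and up to 1.02 when another library was left out. The limma adjusted p-values of these fits ran from 0.0873 to 0.180. RCC1 shares 242 exonic bases on the same strand with SNHG3, a host gene of small nucleolar RNAs that starts beside it, and no other gene of the list shares exonic bases on its strand with a gene that averaged 1 FPKM or more. SNHG3 had 10.48, 11.72 and 8.87 FPKM in LV-NC and 12.46, 12.53 and 13.5 FPKM in LV-SNORA28, a difference of 0.29, at a limma adjusted p of 0.124. The share of RCC1 reads that come from the bases in common with SNHG3 was not measured. Within the span of RCC1, on its strand but without shared exonic bases, 2 small nucleolar RNAs were listed. SNORA73B had 3.24, 5.79 and 6.03 FPKM in LV-NC and 8.33, 13.28 and 10.31 FPKM in LV-SNORA28. Its difference was 0.97, at a limma adjusted p of 0.0543. SNORA73A had 0.11 to 0.14 FPKM. Their part in the RCC1 values was not tested. How much of these values came from mature small nucleolar RNAs in poly(A)-selected libraries was not measured.

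RAN (ENSG00000132341; chromosome 12, 130872037 to 130877678, plus strand) had 34.72, 92.72 and 90.95 FPKM in LV-NC and 107.8, 106.82 and 101.93 FPKM in LV-SNORA28. No LV-SNORA28 value lay within LV-NC, but LV-NC 1 stood far below the rest. The difference was 0.66 (SE 0.36; 95% interval -0.21 to 1.52), at a limma adjusted p of 0.290, and it was 0.20 without LV-NC 1. RANP1, a pseudogene whose 651 bases match 26.3% of the RAN transcript at 97.5% identity, had 6.46, 4.86 and 6.59 FPKM in LV-NC and 4.33, 6.96 and 5.29 FPKM in LV-SNORA28, and LV-NC 1 was not its lowest library. RANGAP1 had 21.22, 23.5 and 29.75 FPKM in LV-NC and 25.27, 28.76 and 28.83 FPKM in LV-SNORA28, a difference of 0.16 with overlapping groups.

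Sums over each role were compared next, without a test. The 6 receptors together had 249.52, 256.26 and 295.74 FPKM in LV-NC and 304.21, 329.19 and 329.35 FPKM in LV-SNORA28. The 3 RAN cycle genes together had 69.13, 139.39 and 141.81 FPKM in LV-NC and 166.85, 164.37 and 174.68 FPKM in LV-SNORA28. Neither sum overlapped between the groups, whereas that of the 30 nucleoporins did, at 355.65, 340.65 and 393.5 FPKM and at 365.88, 369.9 and 386.74 FPKM. Sums are carried by their most abundant genes. As a share of the FPKM sum without mitochondrially encoded genes, the 39 genes held 0.353%, 0.376% and 0.427% in LV-NC and 0.425%, 0.433% and 0.454% in LV-SNORA28, which overlap.

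The share of NUP210 in the nucleoporin pool followed its level. NUP210 made up 15.5%, 13.3% and 14.5% of the summed nucleoporin FPKM in LV-NC and 9.48%, 8.82% and 8.89% in LV-SNORA28. The share was 14.4% ± 1.07 and 9.07% ± 0.362 (SD, n = 3 each), a description of the same NUP210 values chosen after they were seen. The other 29 nucleoporins summed to 300.69, 295.31 and 336.42 FPKM in LV-NC and to 331.18, 337.26 and 352.34 FPKM in LV-SNORA28, and LV-NC 3 lay inside the range of the LV-SNORA28 libraries. LV-NC 3 was the highest LV-NC library for 28 of the 39 genes and the lowest for 1. In its own group, LV-SNORA28 3 was the highest for 20 and the lowest for 6. The summed FPKM of 12 proliferation markers also had LV-NC 3 within the range of LV-SNORA28, at 461.75, 484.78 and 569.11 in LV-NC and 564.85, 621.61 and 621.03 in LV-SNORA28. Of those 12 markers, 4 were called higher (TOP2A, CDK1, CCNB1 and AURKA), against 6.81% of all genes tested, and none was called lower. The median difference of the 12 was 0.26, and 2 of them lay below 0 (MCM2 at -0.09 and MCM5 at -0.01). Their part in the differences of the pore and transport genes was not tested.

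**Figure D4:**
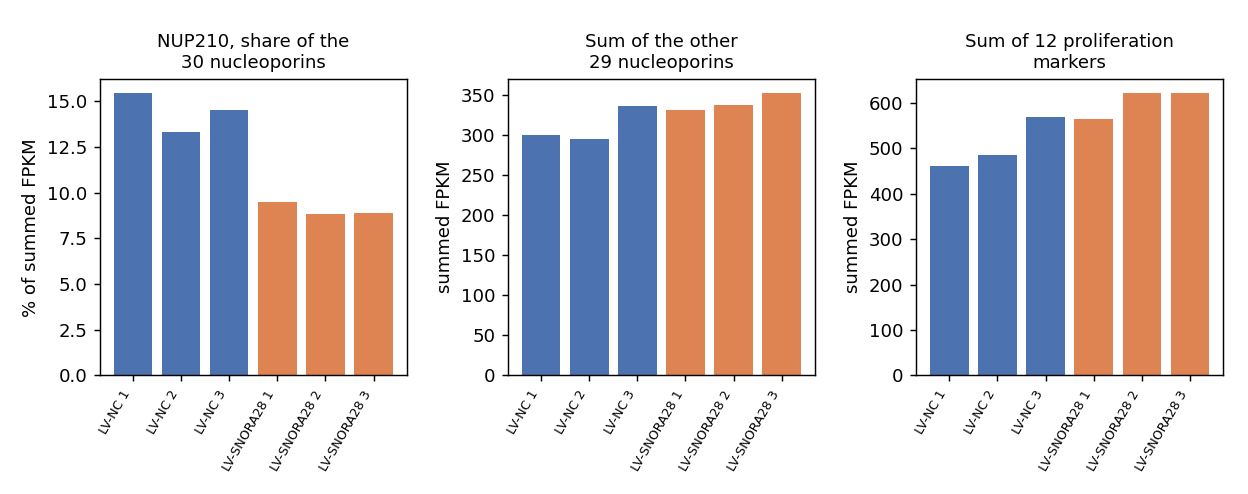
Bars for each library, in order LV-NC 1 to 3 and LV-SNORA28 1 to 3, of the share of NUP210 in the summed FPKM of 30 nucleoporins, the summed FPKM of the other 29 nucleoporins and the summed FPKM of 12 proliferation markers. The NUP210 share is 13.3% to 15.5% in LV-NC and 8.82% to 9.48% in LV-SNORA28, while LV-NC 3 reaches the LV-SNORA28 bars in both sums.

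A wider list of 38 other genes of nuclear transport, 34 of them tested, had 3 calls, all higher (8.82%, against 8.91% of all genes in both directions). KPNA1, an importin alpha, had 7.1, 6.41 and 7.45 FPKM in LV-NC and 8.95, 8.76 and 9.4 FPKM in LV-SNORA28, a difference of 0.33 (SE 0.07), at a limma adjusted p of 0.0430. TNPO3, the importer of SR splicing factors, had 15.99, 15.69 and 18.6 FPKM in LV-NC and 22.3, 20.93 and 21.75 FPKM in LV-SNORA28, a difference of 0.35 (SE 0.08), at a limma adjusted p of 0.0431. NEMP1, a RAN-binding protein of the inner nuclear membrane, had 6.29, 5.48 and 6.14 FPKM in LV-NC and 7.58, 8.14 and 8.98 FPKM in LV-SNORA28, a difference of 0.40 (SE 0.09), at a limma adjusted p of 0.0373. In all 3 genes the groups did not overlap, which held for 35.1% of all genes tested. The calls depended on the full set of libraries. Only that of TNPO3 survived leaving out a library, with an adjusted p in limma of 0.0379 without LV-NC 3, and the adjusted p-values of the 3 genes otherwise ran up to 0.138 in limma.

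By role, the tested importin alphas outside the main list (KPNA1, KPNA3, KPNA4 and KPNA6) had differences in 1 direction. All 4 had groups that did not overlap and differences of 0.25 to 0.43, with a median of 0.30, while 35.1% of all genes tested had groups that did not overlap, and 1 of the 4 (KPNA1) was called. KPNA5 was below the level tested, and KPNA7 was listed at 0 in LV-NC and at no more than 0.08 FPKM in LV-SNORA28. The 8 other import receptors had a median difference of 0.12, and the 6 tested export and two-way receptors 0.18. Among the latter, XPO4 had 5.38, 1.52 and 2.45 FPKM in LV-NC and 4.91, 5.36 and 6.17 FPKM in LV-SNORA28, so LV-NC 1 lay within LV-SNORA28, and it was the 1 gene of the wider list called without that library. The 9 genes of mRNA export at the pore had a median of 0.08 and no call. Within them NXT1, the partner of the export receptor NXF1, was lower in all LV-SNORA28 libraries (13.21, 13.98 and 14.82 FPKM) than in any LV-NC library (14.88, 16.52 and 17.5 FPKM), with a difference of -0.20 and a limma adjusted p of 0.158. NXF1 had a difference of 0.16 with overlapping groups.

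Across the settings tried, the direction of NUP210 and of the genes nearest the threshold was kept, while the calls moved. NUP210 had differences of -0.71 to -0.55 and RAE1 of 0.28 to 0.44, and RCC1 ranged from 0.64 to 1.02, KPNB1 from 0.37 to 0.61 and NUP54 from 0.26 to 0.41. RAN had the widest range, 0.20 to 0.89. The calls of RAE1, KPNA1, TNPO3 and NEMP1 were lost under quantile normalization, and those of NUP210 were lost only when an LV-SNORA28 library was left out.

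**Figure D5:**
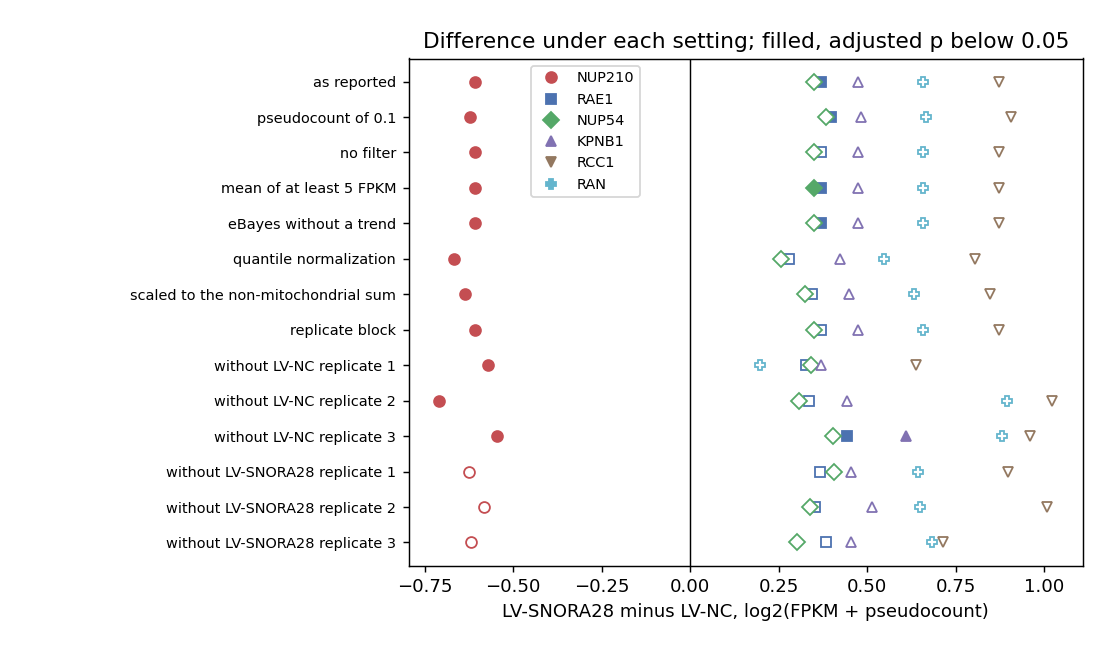
Differences of the genes NUP210, RAE1, NUP54, KPNB1, RCC1 and RAN under each setting, as log2(FPKM + pseudocount), LV-SNORA28 minus LV-NC, with filled symbols where the adjusted p in limma was below 0.05. NUP210 stays between -0.71 and -0.55, the other 5 stay above 0, and no symbol is filled when an LV-SNORA28 library is left out.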

How the data were processed

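RNA of 6 HCT116 libraries (3 LV-NC and 3 LV-SNORA28, grouped by their titles) was measured by stranded, poly(A)-selected paired-end sequencing. The deposited tables, 1 for each library, give an FPKM value per Ensembl gene. The submitters' processing notes name hg38, cutadapt 1.9, HISAT2 2.2.1, StringTie 2.1.6, DESeq2 and edgeR without their roles, and the annotation release was not given in the sources used here. Symbols and coordinates came from GENCODE release 44 on GRCh38 (60401 of 60612 genes matched). Whole reads could not be recovered from the values (39.4% to 41.1% of low values in single-exon genes lay within 0.1 of a whole multiple), so the depth is unknown, no counting interval is given, and the number of libraries limits the precision. FPKM is relative to the whole library, so a change in abundant transcripts shifts every other gene.

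Values were transformed to log2(FPKM + 1), and genes averaging 1 FPKM or more were fitted with limma 3.58.1 in R 4.3.3 (lmFit, eBayes with trend, two-sided), with Benjamini-Hochberg adjustment over all 12076 genes tested. The fit was run on simulated data with independent normal noise for each gene. Those data held no shift shared across a library, so that run does not bear on such shifts. Genes with full values were those with an adjusted p below 0.05, the most abundant gene of each role and the called genes of the wider transport list. RCC1, KPNB1, NUP54 and further examples within a role were chosen after their values were seen. The gene list, the wider lists and the tests were chosen with earlier results of these data known. Motif letters were counted on both strands of RefSeq promoter windows. Pairs of near-identical transcripts were compared with BLAST. Alternatives were a pseudocount of 0.1, other filters, no trend, quantile normalization, scaling to the non-mitochondrial FPKM sum, a replicate block, a fold change above 2 and each library left out in turn. A planned count of phenylalanine-glycine dipeptides was not run.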

Additional observations from a re-analysis of the deposited data

How the results depend on the processing

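Of the 39 genes, 2 were called as reported, also with a pseudocount of 0.1 or without a trend. Among genes averaging 5 FPKM or more, 3 of the 36 tested were called, beside 910 of all 6241 genes. The count for the list was 1 without a filter, 1 under quantile normalization and 1 after scaling to the non-mitochondrial sum. It was 0 to 3 when a library was left out (0 without any of the LV-SNORA28 libraries). At the threshold of the study the count was 0 with a fold change above 2 and 1 to 2 when a library was left out. The median difference of the 39 genes was 0.0724 under quantile normalization and 0.12 to 0.25 when a library was left out, the highest without LV-NC 3. The wider transport list had 0 calls without a filter, under quantile normalization and after scaling to the non-mitochondrial sum, and 0 to 1 when a library was left out. Without a filter 397 of all genes were called, and 278 to 629 when a library was left out. Quantile normalization gave 451 higher and 375 lower calls in place of 822 and 254, and scaling to the non-mitochondrial sum 615 and 263. Over all genes tested, deviations from the group means were hardly correlated between same-numbered libraries (-0.04, 0.09 and 0.00983). With the replicate block 1 of the 39 genes (NUP210), 0 genes of the wider list and 510 of all genes were called. Before adjustment, 19 of the 39 genes had a limma p below 0.05 with the block, beside 14 without it. With the block the SE of NUP210 fell from 0.0947 to 0.0704, and that of RAE1 rose from 0.0805 to 0.0821. These values do not settle whether same-numbered libraries were paired.

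Above 0 were 35 of the 39 genes as reported, 25 under quantile normalization and 31 after scaling to the non-mitochondrial sum. Among the 16 genes followed through every setting, 4 with differences near 0 reversed. NUP188 was -0.0558 under quantile normalization, -0.00195 after scaling to the non-mitochondrial sum and -0.0430 to 0.13 when a library was left out. TPR was -0.0292 under quantile normalization and -0.0279 to 0.13 when a library was left out. NUP62 was -0.19 to 0.22 and RANBP2 -0.00774 to 0.16 when a library was left out. The cause of these changes was not tested, beyond the smaller number of libraries in fits that left out 1. Since the depth is unknown, low FPKM values carry an unknown counting error.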
